A study of Mus musculus with 4 samples.

Results

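The cells described here are macrophages of subcutaneous LLC tumors, grown in mice from the Lewis lung carcinoma line, that carried messages of the Folr2, Lyve1, Cd163 and Fcna group. A barcode was taken when it had at least 200 detected genes, at most 20% mitochondrial UMIs (unique molecular identifiers, each standing for 1 captured message), at least 5 UMIs of C1qa, C1qb and C1qc together, at least 2 UMIs of Folr2, Lyve1, Cd163 and Fcna together, and at most 1 UMI of Rhox5, a homeobox gene of the tumor cells. The members were thus chosen by measured UMIs of these 8 genes, and the rule took 4713 of 55805 barcodes. The chemokine gene Ccl8 had no part in it. The 2356 other barcodes that passed the same C1q, Rhox5 and quality limits but had at most 1 UMI of the Folr2 group are called other C1q macrophages, and both populations together are called C1q macrophages.

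The tumors grew in female C57BL/6N mice of 6 to 8 weeks that received no stated genetic change. In the radiotherapy (RT) group, tumors of about 100 mm3 received 24 Gy as 3 fractions of 8 Gy from day 7 to day 9, and RT1, RT2 and RT3 are libraries of 1 tumor each. The control (NT) group was mock-treated and is 1 library in which 3 tumors were pooled, so NT has no spread between animals and no p-value was computed between NT and RT. All tumors were taken 72 h after radiation and read with a 3′ microwell kit. The tables held 69667759 UMIs in NT, 78585759 in RT1, 108699844 in RT2 and 85660188 in RT3. The RT2 table stood apart, since it listed fewer genes than the 32285 of each other table and its highest mitochondrial share was 11.95%, whereas the highest shares elsewhere were 92.6% (NT), 91.5% (RT1) and 97.0% (RT3). Only genes listed in every table were used. Any pair of libraries shared between 182 and 277 barcode sequences.

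Macrophages of the Folr2 type are found in many healthy tissues, often close to blood vessels, and are known for taking up debris, proteins and iron-bearing molecules. Folr2 encodes folate receptor beta, Lyve1 a hyaluronan receptor that lymphatic endothelium also carries, Cd163 the scavenger receptor for hemoglobin bound to haptoglobin, and Fcna the lectin ficolin A, which starts the lectin pathway of complement. Macrophages that arise from recently arrived monocytes instead tend to keep Ly6c2 and Ccr2 and often carry MHC class II, the molecules that show antigen to helper T cells.

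The promoters of Folr2, Fcna and Ccl8 are shown because the first genes chose the cells and Ccl8 was the chemokine that differed most between them and the other C1q macrophages. Each run is the 250 bases before a RefSeq start in GRCm38.p6, written 5′ to 3′ in the direction of the gene, and capitals mark the letters TGCTGA (the core bound by MAF family factors) and GAGGAA (a core bound by PU.1) on either strand. The Ccl8 run is at chr11:82114935-82115184 on the plus strand, the Folr2 runs are at chr7:101845332-101845581 and chr7:101857191-101857440 on the minus strand, and the Fcna run is at chr2:25627975-25628224 on the minus strand.
Ccl8: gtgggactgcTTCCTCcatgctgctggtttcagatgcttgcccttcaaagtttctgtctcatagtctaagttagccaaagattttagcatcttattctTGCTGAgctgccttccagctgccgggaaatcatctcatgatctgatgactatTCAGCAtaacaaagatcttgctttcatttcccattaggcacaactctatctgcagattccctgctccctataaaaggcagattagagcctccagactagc
Folr2, start 1: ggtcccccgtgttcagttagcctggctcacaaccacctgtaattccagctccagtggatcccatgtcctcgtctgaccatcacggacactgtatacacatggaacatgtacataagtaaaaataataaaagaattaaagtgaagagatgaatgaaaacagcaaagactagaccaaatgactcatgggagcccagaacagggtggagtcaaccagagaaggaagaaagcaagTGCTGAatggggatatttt
Folr2, start 2: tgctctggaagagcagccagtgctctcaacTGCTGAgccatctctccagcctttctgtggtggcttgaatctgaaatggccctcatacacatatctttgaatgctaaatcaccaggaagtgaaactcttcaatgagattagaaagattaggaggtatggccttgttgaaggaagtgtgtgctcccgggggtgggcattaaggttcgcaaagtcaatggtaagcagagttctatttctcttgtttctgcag
Fcna: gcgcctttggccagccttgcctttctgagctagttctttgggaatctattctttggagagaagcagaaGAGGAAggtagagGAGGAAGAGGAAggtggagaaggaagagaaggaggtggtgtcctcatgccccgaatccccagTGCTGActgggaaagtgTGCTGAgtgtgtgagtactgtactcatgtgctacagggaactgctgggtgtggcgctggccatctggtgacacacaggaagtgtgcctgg

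The Ccl8 run held 2 matches to TGCTGA and 1 to GAGGAA. Each Folr2 run held 1 match to TGCTGA, and the Fcna run held 2 matches to TGCTGA and 3 to GAGGAA, with no letter shared between motifs. The run of the same length before Cbr2, a gene described below that was higher in these cells, held 0 matches to TGCTGA and 1 to GAGGAA. The Cd163 run held neither motif, and Lyve1 had no entry in the promoter table. Among 32851 runs of that length, 16.1% held TGCTGA and 23.3% held GAGGAA. Maf, which encodes a factor of the MAF family, was read at 869 CPM (counts per 1000000 UMIs of the summed cells) in the Folr2 macrophages of NT, 996 in RT1, 995 in RT2 and 960 in RT3. In the other C1q macrophages Maf was at 485, 765, 706 and 659 CPM in the same order. Maf was higher in the Folr2 macrophages of every library, by 0.61 on the log2 scale (SE 0.08, edgeR adjusted p = 1.24e-04). Spi1, which encodes PU.1, was not called (log2 difference 0.09). These matches are letters in a window and were not tested as binding sites.

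The label was then read against the genes of the rule. Folr2 chose nearly all of the cells. At least 1 Folr2 UMI was present in 98.3% of the chosen cells in NT, 97.1% in RT1, 98.5% in RT2 and 98.7% in RT3, and 95.0%, 88.5%, 93.8% and 92.6% of them would have passed on Folr2 alone. Fcna was found in 43.5% of the cells in NT, 63.7% in RT1, 58.0% in RT2 and 46.3% in RT3. Lyve1 was found in 11.4%, 41.2%, 25.7% and 32.7%, and Cd163 in 6.02%, 9.07%, 6.28% and 10% in the same order. Lyve1 and Cd163 were thus read in minorities of the cells, and the population is called Folr2 macrophages below.

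After thinning every cell to 2000 UMIs, which left out 30 cells in NT, 386 in RT1, 144 in RT2 and 135 in RT3, Lyve1 was found in 7.06% of the Folr2 macrophages in NT, 32.1% in RT1, 14.7% in RT2 and 27.6% in RT3. Tumor barcodes, those with at least 5 Rhox5 UMIs, should lack these genes. Folr2 UMIs were nevertheless found in 0.68% of them in NT, 4.38% in RT1, 4.88% in RT2 and 1.86% in RT3, at median depths of 9354, 7570.5, 10692 and 8130 UMIs. Fcna UMIs were found in 3.10%, 4.43%, 6.81% and 3.53% of them, above Folr2 in NT, RT2 and RT3 and level with it in RT1, while Lyve1 reached 1.15% and Cd163 0.22% at most. The Folr2 macrophages themselves had median depths of 4446, 3389, 5395.5 and 3283 UMIs.

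General macrophage genes were present throughout. Adgre1, which encodes F4/80, was read in the Folr2 macrophages at 461 CPM in NT, 727 in RT1, 490 in RT2 and 493 in RT3, and the CSF-1 receptor gene Csf1r at 391.7, 979, 707 and 568. Markers of other cells were low in the sums, but part of the cells carried them. At least 2 UMIs of fibroblast, endothelial, neutrophil and lymphocyte markers were held by 8.70% of the Folr2 macrophages in NT. The shares were 16.2% in RT1, 29.9% in RT2 and 15.5% in RT3. A single Rhox5 UMI, which the rule allows, was held by 22 cells in NT, 222 in RT1, 241 in RT2 and 106 in RT3. The summed level of the 13 listed tumor markers was 24.3 CPM in NT, 40.6 in RT1, 39.7 in RT2 and 54.3 in RT3, led by Krt8, and Krt19, Cldn6 and Trap1a were at 0 in all 4 libraries. The 8 endothelial markers summed to 6.56, 9.47, 20.5 and 12.04 CPM. The 8 fibroblast markers, led by Col3a1, summed to 43.3, 86.6, 57.1 and 206 CPM, with RT3 the highest. The 8 neutrophil markers, led by Csf3r, summed to 23.0, 92.4, 151 and 73.5 CPM, with NT the lowest, and lymphocyte markers, led by Gzma, to 18.4, 8.93, 21.9 and 36.8 CPM. Dendritic cell markers stayed at or below 7.87 CPM and mast cell markers at or below 1.95 CPM. Of the lymphatic endothelial markers, Flt4 and Pdpn were listed, and their sum of 175, 208, 232 and 220 CPM was nearly all Pdpn, which macrophages can also express. The part of these messages in the results below was not tested, apart from the counts given without barcodes that held markers of other cells.

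**Figure D1:**
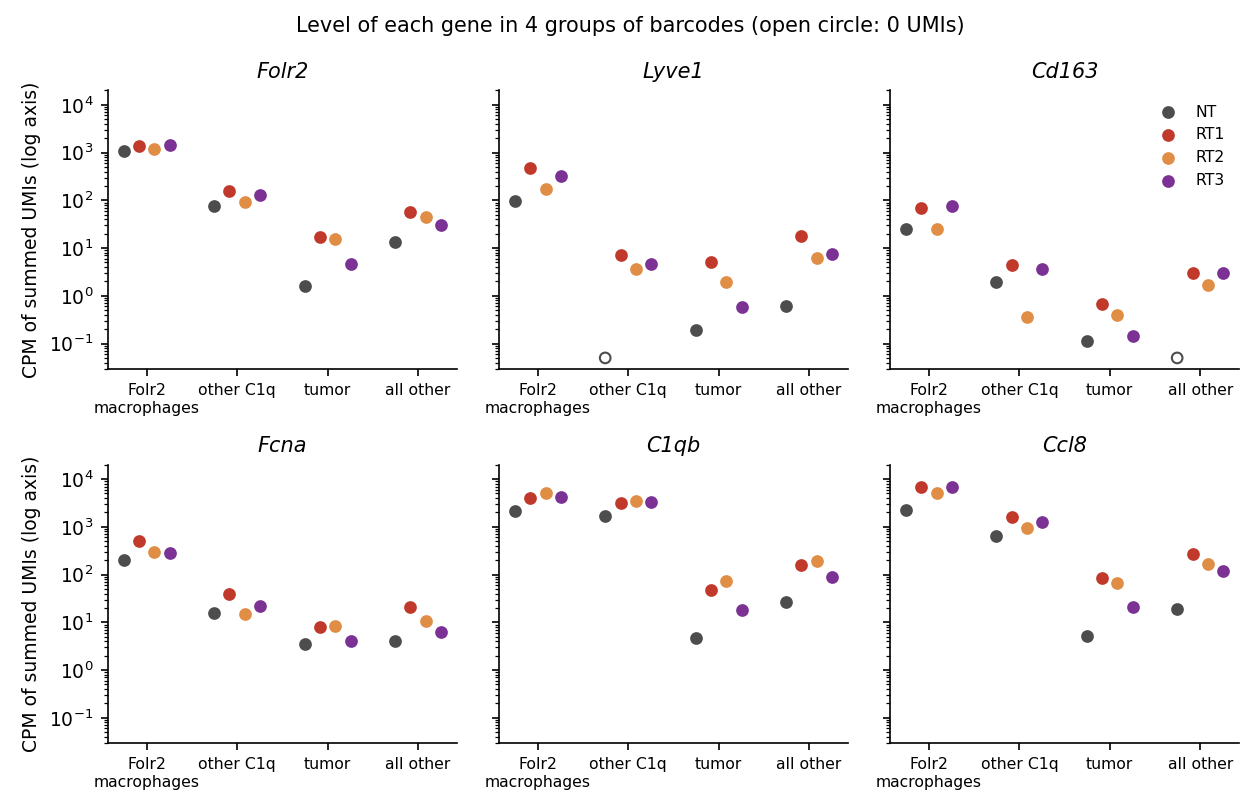
CPM of summed UMIs (log axis) for Folr2, Lyve1, Cd163, Fcna, C1qb and Ccl8 in Folr2 macrophages, other C1q macrophages, tumor barcodes and all other kept barcodes, 1 point per library and open circles for 0 UMIs. Ccl8, which had no part in the choice of the cells, lay between 2245 and 6936 CPM in the Folr2 macrophages and between 652 and 1601 CPM in the other C1q macrophages.

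Folr2 macrophages held a larger share of the cells in each RT library than in NT. There were 299 in NT, 1820 in RT1, 1814 in RT2 and 780 in RT3, of 9976, 15029, 14993 and 15060 kept barcodes. Their share was 3.00% in NT (95% Clopper-Pearson interval 2.67 to 3.35), 12.1% in RT1, 12.1% in RT2 and 5.18% in RT3. The RT libraries averaged 9.80% ± 4.0 (SD, n = 3), 3.27 times the NT share, and the lowest of them was above the NT interval. Of the tumor barcodes, 0.62% in NT, 2.43% in RT1, 3.10% in RT2 and 0.84% in RT3 also reached 2 UMIs of the Folr2 group, and 0.28%, 1.91%, 2.20% and 0.57% reached the C1q limit as well. Both shares were higher in each RT library than in NT, and the part of such stray UMIs in the result was not tested. The limits of the rule are fixed UMI counts, so the share also depends on the levels of the rule genes in each cell. Within the chosen cells C1qb, Lyve1 and Fcna were higher in each RT library than in NT, whereas Folr2, C1qa and C1qc differed little, as given below. The part of these levels in the share was not tested. Leaving out barcodes with at least 2 UMIs of fibroblast, endothelial, neutrophil and lymphocyte markers, from both the cells and the total, cut the kept barcodes to 2460 in NT, 5540 in RT1, 4986 in RT2 and 4701 in RT3, while 273, 1526, 1272 and 659 Folr2 macrophages remained. This also took out 93.9%, 92.9%, 95.9% and 94.5% of the tumor barcodes, in which the fibroblast marker Col3a1 was the highest of these genes, so the share is then mostly one of non-tumor barcodes, a different denominator. It was 11.1% in NT and 22.4% ± 7.29 in RT, 2.01 times the NT share and 11.3 percentage points above it, against 6.80 points before.

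The share among C1q macrophages was also higher in every RT library. It was 49.3% in NT (interval 45.3 to 53.4), 73.8% in RT1, 66.5% in RT2 and 61.5% in RT3, which averaged 67.3% ± 6.20 (SD, n = 3), a difference of 17.9 percentage points. With cells thinned to 2000 UMIs and chosen again, the shares were 41.6% in NT and 64.5% ± 8.47 in RT. These intervals cover counting error only, and the spread between NT tumors cannot be read from a pooled library. The share among C1q macrophages rests on the same fixed limits, and the part of the levels of the rule genes in it was not tested.

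**Figure D2:**
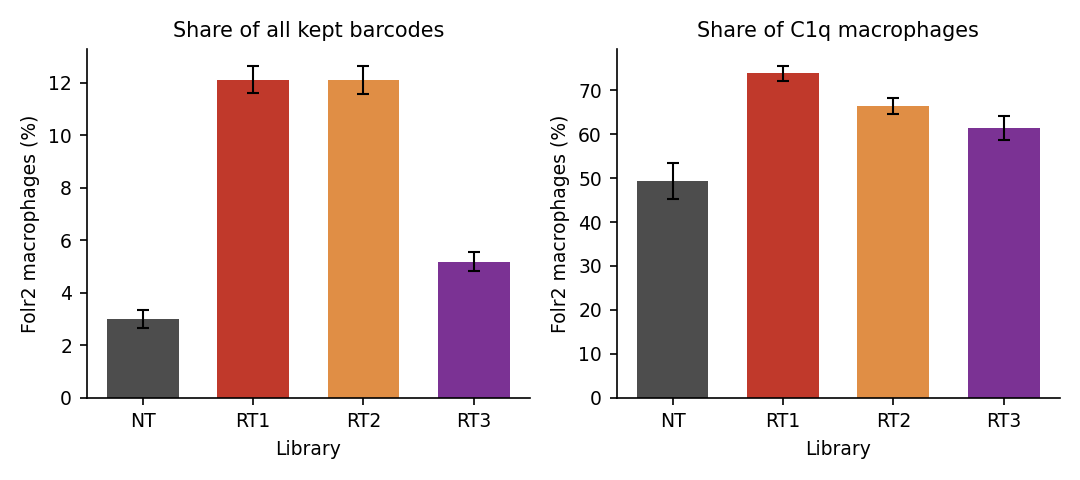
Folr2 macrophages as a percent of all kept barcodes (left) and of C1q macrophages (right) in each library, with exact 95% binomial intervals. NT lay at 3.00% and 49.3%, below all 3 RT libraries in both panels.

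Ccl8, a chemokine that attracts monocytes and T cells, was higher in the summed Folr2 macrophages than in each other summed group of barcodes. Its level in them was 2245 CPM in NT, 6889 in RT1, 5042 in RT2 and 6936 in RT3. In the other C1q macrophages it was 652, 1601, 959 and 1291 CPM, and in tumor barcodes 5.06, 83.9, 68.0 and 21.0 CPM. The lowest Folr2 macrophage value was above the highest value of any other group. Folr2 macrophages held 2.20% of all UMIs in NT, 9.51% in RT1, 10.3% in RT2 and 3.61% in RT3, but 74.0%, 82.1%, 83.9% and 81.0% of the Ccl8 UMIs.

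Against the other C1q macrophages of the same library, Ccl8 was higher by 2.23 on the log2 scale (SE 0.11, edgeR adjusted p = 1.08e-07), in 4 of 4 libraries. The difference was 1.57 when cells were thinned to 2000 UMIs and chosen again. A Ccl8 UMI was found in 71.9% of Folr2 macrophages in NT, 86.0% in RT1, 84.2% in RT2 and 86.9% in RT3, against 37.8%, 44.3%, 35.7% and 43.4% of other C1q macrophages and 1.24%, 10.9%, 14.8% and 5.79% of tumor barcodes. Ccl8 rose across the limit of the rule as well. Cells with exactly 2 UMIs of the Folr2 group had 1251 CPM in NT, 3279 in RT1, 1992 in RT2 and 3139 in RT3, and cells with exactly 1 had 974.8, 2276, 1508 and 1880. The limit therefore cuts a graded range.

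Over thinned Folr2 macrophages, the genes whose level per cell was most like that of Ccl8 were Selenop (selenoprotein P, mean Pearson r of the 4 libraries 0.49), Ms4a7 (0.35), B2m (0.35), Apoe (0.33) and C1qc (0.31). Selenop led in every library, with r of 0.41 in NT, 0.55 in RT1, 0.51 in RT2 and 0.51 in RT3. The cells of a library share its capture and base composition, and C1qc belongs to the rule, so these values are a description.

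To ask which other genes went with the Folr2 group, UMIs were summed for the Folr2 and the other C1q macrophages of each library and compared within libraries by edgeR, without the 8 genes of the rule. The cells were sorted by UMIs of these same libraries, so the test covers genes outside the rule and does not show that the rule marks a separate cell type. Of 9353 genes tested, 971 were higher in the Folr2 macrophages (10.4%) and 1093 were lower (11.7%). Without RT1 the counts were 579 and 644, without RT2 535 and 607, with cells thinned to 2000 UMIs 470 and 513, and without the library as a block 70 and 87. The Folr2 macrophages were deeper than the other C1q macrophages, whose median depths were 2931 UMIs in NT, 1820.5 in RT1, 2573 in RT2 and 1914 in RT3.

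Genes known from tissue macrophages were higher as a group. Of 32 listed, 29 were tested, 25 were higher, 1 (Ccl24) was lower, and the median log2 difference was 1.33 against -0.02 for all genes tested. Cbr2, a carbonyl reductase, was read in the Folr2 macrophages at 267 CPM in NT, 1047 in RT1, 776 in RT2 and 693 in RT3. In the other C1q macrophages it was at 43.3, 294, 125 and 133 CPM. Cbr2 was higher by 2.38 on the log2 scale (SE 0.13, edgeR adjusted p = 1.45e-07), and within every library the Folr2 value was more than 3 times the other.

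The growth factor gene Igf1 was at 45.3 CPM in NT, 69.8 in RT1, 40.5 in RT2 and 65.4 in RT3, against 13.8, 18.9, 6.95 and 19.3 CPM in the other C1q macrophages. The groups did not overlap, and the log2 difference was 2.07 (SE 0.15, edgeR adjusted p = 1.81e-06). F13a1, the A subunit of coagulation factor XIII, was at 627, 1356, 622 and 1049 CPM against 140, 437, 201 and 490 CPM. Its log2 difference was 1.66 (SE 0.12, edgeR adjusted p = 1.39e-06), with no overlap between the groups. The mannose receptor gene Mrc1 differed by 0.87, Selenop by 1.59, the lectin gene Clec10a by 1.61 and the scavenger receptor gene Stab1 by 1.10, each higher in 4 of 4 libraries. The lectin gene Mgl2 was not called, with a difference of -0.15.

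Other leading genes outside that list were the sialic acid lyase gene Npl (log2 difference 2.59), the growth factor gene Bmp2 (2.38), the acute phase gene Saa3 (2.14), the iron exporter gene Slc40a1 (2.01), Stard8 (1.79), the prostaglandin D synthase gene Hpgds (1.77), the neonatal Fc receptor gene Fcgrt (1.77) and Smagp (1.65). Slc40a1, which encodes ferroportin, was at 160 CPM in NT, 68.1 in RT1, 28.3 in RT2 and 191 in RT3 in the Folr2 macrophages, against 34.4, 13.8, 6.95 and 62.6 CPM in the other C1q macrophages. It was higher within every library, although its level varied several times among the libraries. Saa3 was at 19.7, 81.2, 755 and 105 CPM against 2.95, 23.9, 132 and 46.0 CPM, so RT2 was far above the other libraries in both populations.

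Iron and heme genes showed 8 higher and 0 lower of 13 tested, of 16 listed, with a median of 0.50. They included the heme oxygenase gene Hmox1 (0.96), Ncoa4 (0.95), whose product carries ferritin to lysosomes, and the transferrin gene Trf (0.75). Scavenger and lectin receptors showed 12 higher and 1 lower of 21 tested (median 0.42), complement genes 7 higher and 1 lower of 12 (median 0.37), and lipid and lysosome genes 11 higher and 4 lower of 22 (median 0.27). Among the latter, Apoe, the lysosomal proteases Ctsb, Ctsd, Ctsl and Ctss, and Trem2 were higher, while Spp1, Cd9, Lpl and Vegfa were lower. Of 11 C-C chemokine genes tested, Ccl2, Ccl3, Ccl6, Ccl7, Ccl8 and Ccl12 were higher and Ccl5, Ccl17 and Ccl24 were lower. Apart from Ccl8, the higher ones differed by 0.77 or less.

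All 8 MHC class II genes tested were lower in the Folr2 macrophages, with a median log2 difference of -1.39. H2-Aa, a chain of the class II molecule, was at 5558 CPM in NT, 806 in RT1, 1344 in RT2 and 1342 in RT3, against 10130, 2616, 3500 and 3563 CPM in the other C1q macrophages. The Folr2 value was lower in 4 of 4 libraries, by 1.29 on the log2 scale (SE 0.10, edgeR adjusted p = 2.61e-06). Ciita, the master regulator of these genes, fell by 1.95. Dendritic cell markers summed to 56.0 CPM in NT, 3.63 in RT1, 11.7 in RT2 and 26.7 in RT3 in the other C1q macrophages. In the Folr2 macrophages they summed to 7.87, 7.31, 4.27 and 5.53 CPM. Called lower were 1 of 1 dendritic, 2 of 2 endothelial, 3 of 4 tumor, 2 of 6 fibroblast and 3 of 5 neutrophil genes. Of the neutrophil genes 1 was higher, and of 3 lymphocyte genes 0 were called. The part of such markers in these falls was not tested.

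All 14 monocyte genes tested, of 16 listed, were lower as well, with a median of -1.64. The monocyte surface gene Ly6c2 was at 10.5 CPM in NT, 36.9 in RT1, 60.2 in RT2 and 45.2 in RT3, against 19.7, 377, 694 and 481 CPM. Ccr2, the receptor that leads monocytes out of the marrow, was at 76.8, 25.7, 23.5 and 28.3 CPM against 184, 247, 225 and 129 CPM. Within every library both genes were lower in the Folr2 macrophages, by 3.26 for Ly6c2 (SE 0.18, edgeR adjusted p = 1.64e-07) and by 2.58 for Ccr2 (SE 0.24, edgeR adjusted p = 1.40e-05). Chil3 (-2.62) and Plac8 (-2.23), also of that list, fell with them. The remaining largest falls were Cytip (-2.60), the growth factor amphiregulin, Areg (-2.41), Nr4a3 (-2.12), the NF-kB activator Malt1 (-2.0), Coro2a (-1.94), Ifitm1 (-1.92), Trem1 (-1.86) and Il1b (-1.76).

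Inflammatory mediators were split, with 3 higher and 6 lower of 18 tested (median -0.12). Il10, an anti-inflammatory cytokine, was higher by 1.10 and Tnf (0.38) and Icam1 (0.40) in 3 of 4 libraries, while Il1b, Cxcl3 (-1.35, in 3 of 4 libraries), Ptgs2 (-1.13), Nos2 (-0.86), Il1rn (-0.34) and Cxcl2 (-0.24) were lower. Transcription factors showed 5 higher (Egr1, Maf, Nr1h3, Tcf4 and Tfec) and 10 lower of 32, among them Irf4 (-1.95), Bhlhe40 (-1.70) and Nfil3 (-1.32). Growth factor and matrix genes showed 9 higher and 10 lower of 25, genes of the CSF-1 receptor axis 6 and 4 of 13, checkpoint and costimulation genes 3 and 3 of 14, and genes for uptake of dead cells 3 and 2 of 13. Interferon response genes showed 1 higher and 4 lower of 29, p53 targets 2 and 0 of 19, cell cycle genes 0 and 1 of 20, and genes of the response to dissociation 3 and 2 of 19. For the interferon, p53 and cell cycle lists the share called in either direction was below the 22.1% of all genes tested.

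**Figure D3:**
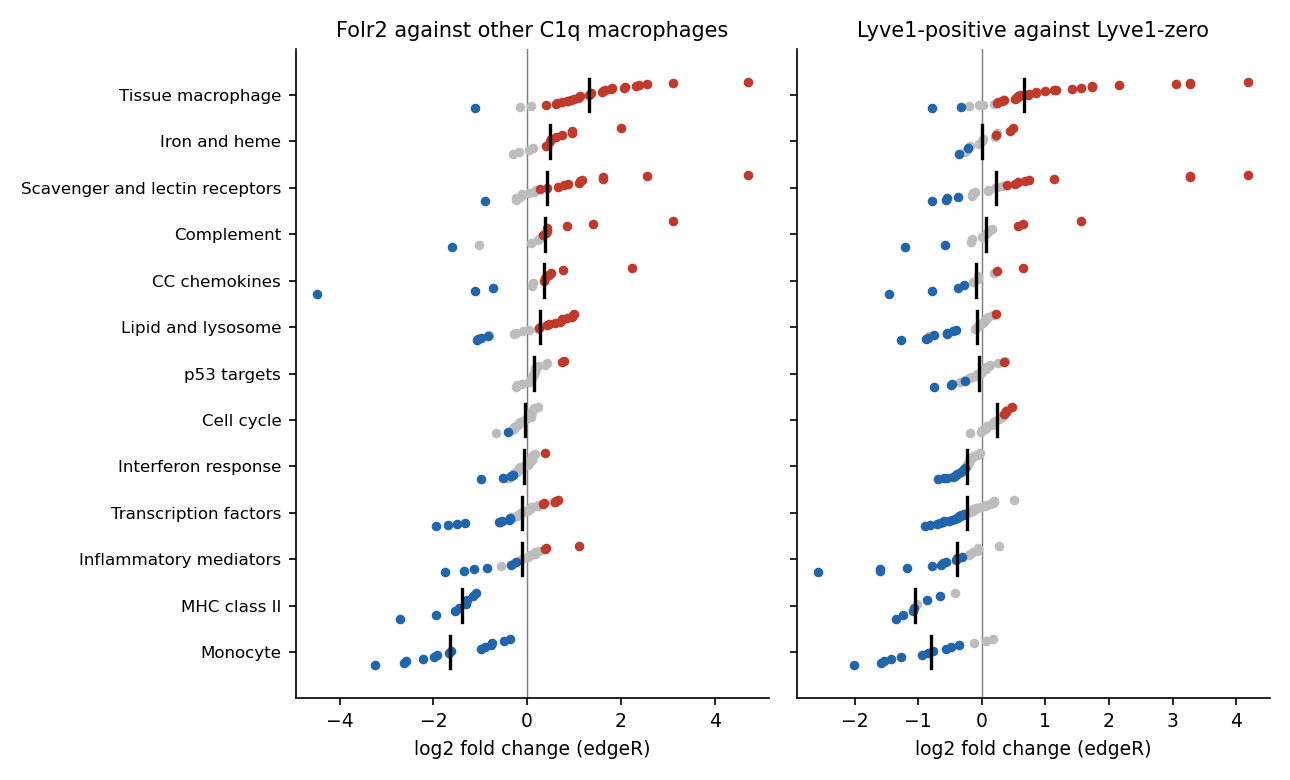
log2 fold changes of the genes of 13 lists between Folr2 and other C1q macrophages (left) and between Lyve1-positive and Lyve1-zero Folr2 macrophages (right), 1 point per gene, red for genes called higher, blue for genes called lower, grey for genes not called, and a black bar at the median of each list. Tissue macrophage genes lay mostly to the right (medians 1.33 and 0.66) and monocyte and MHC class II genes to the left in both panels.

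Within the Folr2 macrophages, cells with at least 1 Lyve1 UMI were compared with cells that had none. There were 34 Lyve1-positive cells in NT, 750 in RT1, 466 in RT2 and 255 in RT3. A split on 1 UMI marks a range and not a type, since a cell read with more UMIs is more likely to show Lyve1. Of 9783 genes tested, 354 were higher (3.62%) and 456 were lower (4.66%) in Lyve1-positive cells, 8.28% in either direction, by edgeR with library as a block. Without RT1 the counts were 102 and 173, without RT2 136 and 240, with cells thinned to 2000 UMIs 82 and 202, and without the block 0 and 1.

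Lyve1-positive cells had more of the tissue macrophage program. Of the 32 listed genes, all tested, 25 were higher and 2, among them Ccl24, were lower, with a median log2 difference of 0.66 against -0.00 for all genes tested. The largest rise was in Cd209f, a lectin gene of the DC-SIGN family, which was at 4.02 CPM in NT, 65.4 in RT1, 36.3 in RT2 and 101 in RT3 in Lyve1-positive cells. In Lyve1-zero cells it was at 3.14, 1.84, 0.77 and 11.5 CPM. The groups differed clearly in the 3 RT libraries and hardly in NT, where they held 5 UMIs together. The fitted log2 difference was 4.19 (SE 0.25, edgeR adjusted p = 1.46e-11). The related genes Cd209d, Cd209g and Cd209b, which were at 0 in NT, differed by 3.27, 3.27 and 3.05. Timd4, a phosphatidylserine receptor of long-lived resident macrophages, was close to 0 in both, at 8.04, 2.51, 1.43 and 3.47 CPM in Lyve1-positive cells.

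F13a1 was at 1386 CPM in NT, 1893 in RT1, 1008 in RT2 and 1574 in RT3 in Lyve1-positive cells, against 478, 849, 448 and 734 CPM in Lyve1-zero cells. Every Lyve1-positive value exceeded every Lyve1-zero value, and the log2 difference was 1.17 (SE 0.07, edgeR adjusted p = 1.46e-11). Ccl8 was at 3741, 8667, 6743 and 8525 CPM against 1953, 5207, 4273 and 5982 CPM, higher in 4 of 4 libraries by 0.65 (SE 0.07, edgeR adjusted p = 2.78e-07). The remaining leading rises were the endothelin receptor gene Ednrb (1.73), Npl (1.45), the kinase gene Dmpk (1.25), Stard8 (1.09), the lipoxygenase gene Alox5 (1.09), Cbr2 (1.00), Pmp22 (0.98), Enpp1 (0.96), Bmp2 (0.90) and Gas6 (0.86), the bridging ligand that lets macrophage receptors bind dying cells. Of these, Npl, Stard8, Cbr2 and Bmp2 also led the comparison with other C1q macrophages.

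Inflammatory, monocyte and antigen presentation genes were among those lower in Lyve1-positive cells. The neutrophil chemokine gene Cxcl3 was at 28.1 CPM in NT, 60.7 in RT1, 22.0 in RT2 and 57.2 in RT3, against 123, 349, 161 and 280 CPM. Thbs1, thrombospondin 1, was at 438, 488, 477 and 424 CPM against 1164, 1417, 1312 and 1407 CPM. For both genes the groups did not overlap, and they fell by 2.58 (SE 0.09, edgeR adjusted p = 1.48e-15) and by 1.59 (SE 0.07, edgeR adjusted p = 1.80e-13). Of 18 inflammatory mediators tested, 11 were lower and 0 higher, among them Il1b (-1.61), Nos2 (-1.60) and Ptgs2 (-1.18). Of 14 monocyte genes, 11 were lower and 0 higher (median -0.80), and of 8 MHC class II genes 6 were lower and 0 higher (median -1.05), with H2-Eb1 at -1.25. Ppbp (-2.12), the matrix proteases Mmp12 (-1.76) and Mmp13 (-1.38), Ccl5 (-1.46), Sirpb1c (-1.28) and Vegfa (-1.27) completed the largest falls.

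Among the other lists, transcription factors showed 0 higher and 15 lower of 31, interferon response genes 0 and 10 of 29, lipid and lysosome genes 1 and 8 of 22, growth factor and matrix genes 7 and 11 of 25, p53 targets 1 and 4 of 20, and C-C chemokines 2 (Ccl8 and Ccl12) and 4 (Ccl3, Ccl4, Ccl5 and Ccl24) of 10. Scavenger and lectin receptors showed 9 and 4 of 22, complement genes 3 and 2 of 11, iron and heme genes 3 and 2 of 13, genes for uptake of dead cells 4 and 4 of 14, genes of the CSF-1 receptor axis 1 and 4 of 13, and checkpoint genes 1 and 5 of 14. Cell cycle genes showed 4 higher (Cdk1, Mcm3, Mcm5 and Mcm6) and 0 lower of 20. Genes of the response to dissociation, the early genes that enzyme digestion can induce, showed 0 higher and 10 lower of 19. Their summed level in Lyve1-positive cells was 41057 CPM in NT, 42411 in RT1, 48777 in RT2 and 46533 in RT3, and in Lyve1-zero cells 61970, 48161, 58156 and 50196 CPM. Their part in the inflammatory genes was not tested. Fibroblast markers summed to 373 CPM in Lyve1-positive cells of RT3 against 106 in its Lyve1-zero cells, and Col1a1 was called higher through RT3 alone, at 130 CPM against 3.65.

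**Figure D4:**
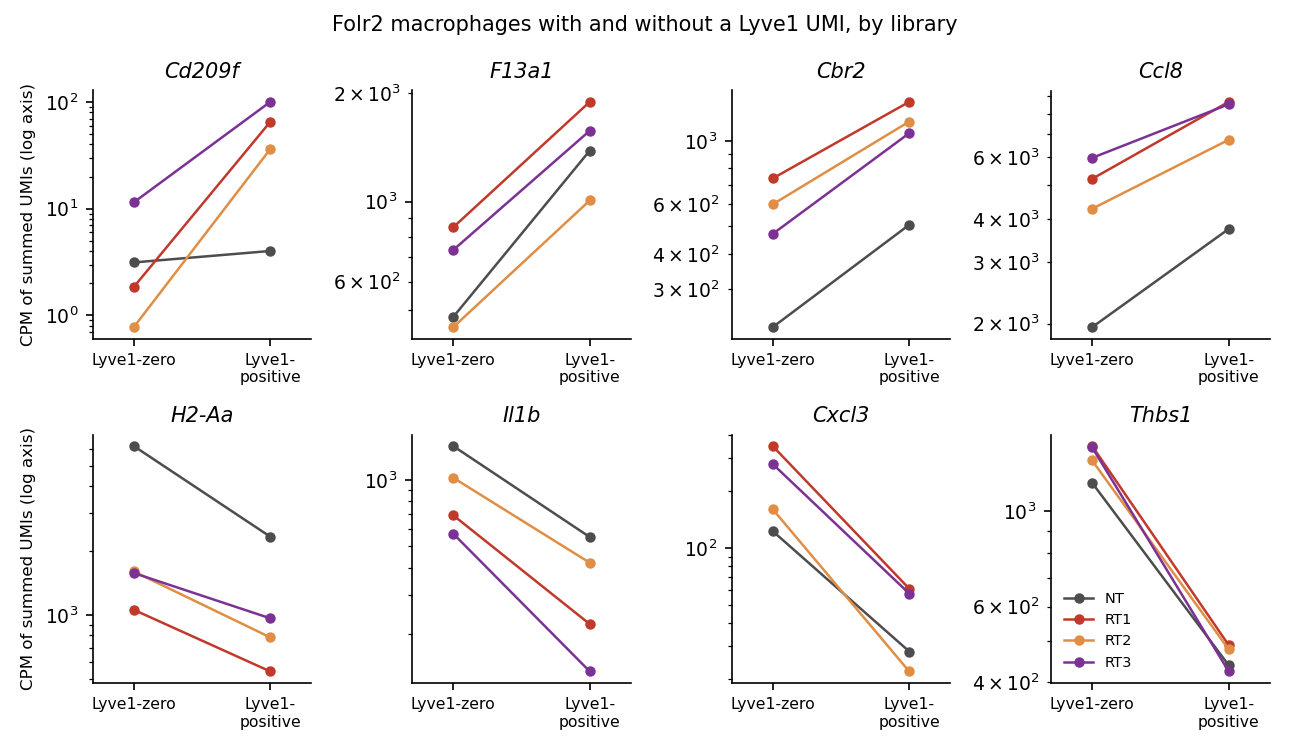
CPM of summed UMIs (log axes that differ between panels) of 8 genes in Lyve1-zero and Lyve1-positive Folr2 macrophages, 1 line per library. Lines of F13a1, Cbr2 and Ccl8 rise in 4 of 4 libraries, and lines of H2-Aa, Il1b, Cxcl3 and Thbs1 fall in 4 of 4. The Cd209f line rises in RT1, RT2 and RT3. In NT it goes from 3.14 to 4.02 CPM, on 5 UMIs in both groups together.

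The last question was how the Folr2 macrophages of irradiated tumors differed from those of the pooled NT library. A gene was taken as past the fold when log2 of RT over NT, each CPM plus 1, was at least 1 in the same direction in all 3 RT libraries, among genes with at least 20 UMIs in NT or in every RT library. Of 7915 genes read, 195 were past the fold upward (2.46%) and 167 downward (2.11%), and all 3 RT libraries lay above NT for 31.6% of genes and below it for 36.1%. Of the libraries, RT3 set the upward count most, which was 417 without it. With 10 CPM added in place of 1, far fewer genes were past the fold, and more of them downward than upward. In the other C1q macrophages, read the same way against the same NT library, 216 of 5784 genes were past the fold upward (3.73%) and 130 downward (2.25%).

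Of the genes of the rule, which chose the cells, Folr2 itself changed little, from 1070 CPM in NT to 1401 in RT1, 1176 in RT2 and 1467 in RT3. Lyve1 was at 97.8, 480, 171 and 326 CPM, a mean log2 ratio of 1.6 ± 0.75 (SD, n = 3). Fcna was at 199, 506, 304 and 285 CPM (0.82 ± 0.45) and Cd163 at 25.6, 69.6, 25.5 and 77.4 CPM (0.99 ± 0.86). For Cd163, RT2 was level with NT. C1qb was at 2115, 4028, 5176 and 4142 CPM (1.06 ± 0.20), while C1qa and C1qc had mean log2 ratios of -0.00 and 0.22.

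Ccl8, with the values given above, was 1.47 ± 0.26 (SD, n = 3) higher in RT on the log2 scale, with all 3 RT libraries above NT. In the other C1q macrophages its log2 ratio was 0.94 ± 0.37, also with all 3 above NT. Ccl6 was at 6201 CPM in NT and 12551, 13115 and 12511 in RT. Its mean log2 ratio was 1.04 ± 0.04, against 1.42 ± 0.19 in the other C1q macrophages, and it was past the fold. The monocyte attractant genes Ccl2 (0.09 ± 0.15) and Ccl7 (-0.08 ± 0.06) were not, nor were Ccl3 (-0.51 ± 0.27), Ccl4 (-0.80 ± 0.14) and Ccl12 (-0.49 ± 0.25). Of 10 C-C chemokine genes read, 2 were thus past the fold, both upward.

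Genes of the p53 response, which DNA damage induces, leaned upward. Of 16 read, of 22 listed, 4 were past the fold, 11 were above NT in all 3 RT libraries, 4 lay on both sides of it and 1 (Bbc3) lay below it in all 3. Their median log2 ratio was 0.86 against -0.03 for all genes, and 1.09 over the 13 read in the other C1q macrophages. Cdkn1a, the cell cycle inhibitor p21, was at 277 CPM in NT, 1335 in RT1, 2079 in RT2 and 1305 in RT3, a log2 ratio of 2.47 ± 0.38. Ccng1 (1.15 ± 0.12), Trp53inp1 (1.83 ± 0.44) and Phlda3 were the other 3. Phlda3 had 2 UMIs in NT, and its mean in RT was 27.1 times the NT value (95% counting interval 7.5 to 224).

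Cell cycle genes were lower. All 19 read lay below NT in every RT library and 12 were past the fold, with a median of -1.76. The proliferation gene Mki67 was at 64.95 CPM in NT and 15.7, 11.6 and 18.5 in RT (-2.04 ± 0.32), and Stmn1 at 391 CPM against 81.2, 68.1 and 87.2 (-2.30 ± 0.18). Pclaf (-2.72 ± 0.17), Tk1 (-2.71 ± 0.18), Pkmyt1 (-2.91 ± 0.25), Fbxo5 (-2.70 ± 0.49), Kif23 (-2.46 ± 0.30), Troap (-2.41 ± 0.37) and Pbk (-2.35 ± 0.14), all of DNA synthesis or mitosis, were among the 12 largest falls. In the other C1q macrophages the 18 cell cycle genes read had a median of -1.62.

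MHC class II genes were lower too. All 6 read lay below NT in every RT library and 5 were past the fold, with a median of -2.13, against -1.59 in the other C1q macrophages. H2-Aa, at 5558 CPM in NT and 806, 1344 and 1342 in RT, had a log2 ratio of -2.29 ± 0.42. Cd74, the chaperone of class II, was at 993 CPM against 130, 374 and 243 (-2.12 ± 0.76).

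With 1 CPM added to each value, the largest of the named falls was in the fractalkine receptor gene Cx3cr1 (-4.15 ± 0.49). Cx3cr1 was at 68.2 CPM in NT, 3.92 in RT1, 3.56 in RT2 and 1.63 in RT3. It was at 89.5, 4.35, 4.39 and 2.76 CPM in the other C1q macrophages. Apol7c (-3.83 ± 0.10), Treml4 (-2.69 ± 0.47), Spn (-2.61 ± 0.70) and H2-Eb1 (-2.45 ± 0.52) were the other genes among the 12. Apol7c was at 21.0 CPM in NT and 0.54, 0.44 and 0.65 in RT, on 4, 5 and 2 UMIs. Its ratio and spread thus depend on the added 1 CPM, without which its mean fall is larger than that of Cx3cr1. Treml4 had 5, 24 and 5 UMIs in RT and Spn 30, 52 and 4, so their ratios rest on few counts.

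Tissue macrophage genes leaned upward. Of 26 read, 5 were past the fold, 19 were above NT in all 3 RT libraries and 0 below it in all 3, with a median of 0.61 against 0.76 over the 18 read in the other C1q macrophages. Pf4, platelet factor 4, was at 543 CPM in NT and 1360, 1310 and 1340 in RT (1.3 ± 0.03), Cbr2 at 267 CPM against 1047, 776 and 693 (1.62 ± 0.31), and Trf at 143 CPM against 412, 520 and 317 (1.51 ± 0.36). The log2 ratios in the other C1q macrophages were 1.64 ± 0.44 for Pf4, 1.95 ± 0.68 for Cbr2 and 1.52 ± 0.06 for Trf. Cd209f was at 3.28 CPM against 32.7, 11.8 and 44.9 (2.66 ± 0.96), and Cd209d, with 0 UMIs in NT, was at 6.22, 3.29 and 26.4 CPM in RT. Taking 3 UMIs as the NT floor, Cd209d was at least 6.07-fold higher in RT, and at least 2.42-fold without RT3. F13a1 and Igf1, at 627 and 45.3 CPM in NT, were near that level in RT2 and above it in RT1 and RT3. Mertk, the receptor through which Gas6 promotes uptake of dying cells, was at 13.8 CPM in NT and 58.6, 51.0 and 57.9 in RT (1.94 ± 0.11).

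The 12 largest rises among genes past the fold also held the scavenger receptor gene Marco, at 14.4 CPM in NT and 99.7, 180.6 and 116 in RT (3.06 ± 0.44), the lysosome gene Gpnmb (3.14 ± 0.28), Ephx1 (2.91 ± 0.05) and Saa3, at 19.7 CPM against 81.2, 755 and 105 (3.18 ± 1.75), where RT2 stood out and the mean without it was 2.17. These genes rose in the other C1q macrophages too, with mean log2 ratios of 2.65 for Marco, 2.99 for Gpnmb, 2.32 for Ephx1 and 3.77 for Saa3. Chil3, Rilp and Wfs1 had 1 UMI each in NT. Their RT means were 49.0 (interval 8.79 to 1935), 26.1 (4.68 to 1031) and 15.6 (2.79 to 614) times the NT value, and that of Chil3 was 31.6 times without RT3. In the other C1q macrophages Chil3 was at 1.97 CPM in NT and 145, 190 and 222 CPM in RT. Its mean log2 ratio there was 5.95, against 4.17 in the Folr2 macrophages. Cd55, which protects cells from complement, and Ahnak2 had 0 UMIs in NT and were at least 13.2-fold and 5.80-fold higher in RT, on the same floor.

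Monocyte genes were mixed, with 4 past the fold upward (Chil3, Plac8, Ly6c2 and S100a4), 1 downward (Ccr2) and a median of 0.59 over 14 genes, against 1.5 in the other C1q macrophages. Ly6c2 was at 10.5 CPM in NT and 36.9, 60.2 and 45.2 in RT (2.05 ± 0.35), whereas Ccr2 was at 76.8 CPM against 25.7, 23.5 and 28.3 (-1.54 ± 0.13). Interferon response genes showed 2 upward (Isg20 and Oas3) and 0 downward of 28 (median 0.16), inflammatory mediators 1 (Icam1) and 0 of 18 (median -0.19), lipid and lysosome genes 2 and 0 of 22, iron and heme genes 1 and 0 of 13, complement genes 1 and 1 of 10, and scavenger and lectin receptors 4 and 0 of 19. Growth factor and matrix genes showed 3 and 1 of 24, genes of the CSF-1 receptor axis 1 and 1 of 13, genes for uptake of dead cells 1 and 0 of 13, genes of the response to dissociation 1 and 1 of 19, and transcription factors and checkpoint genes 0 in either direction of 31 and 14. Of the markers of other cells, Csf3r and S100a8 of the neutrophil list and Col18a1 of the tumor list were past the fold upward, with Csf3r at 13.8 CPM in NT and 64.96, 97.2 and 50.1 in RT, and their part in these results was not tested.

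**Figure D5:**
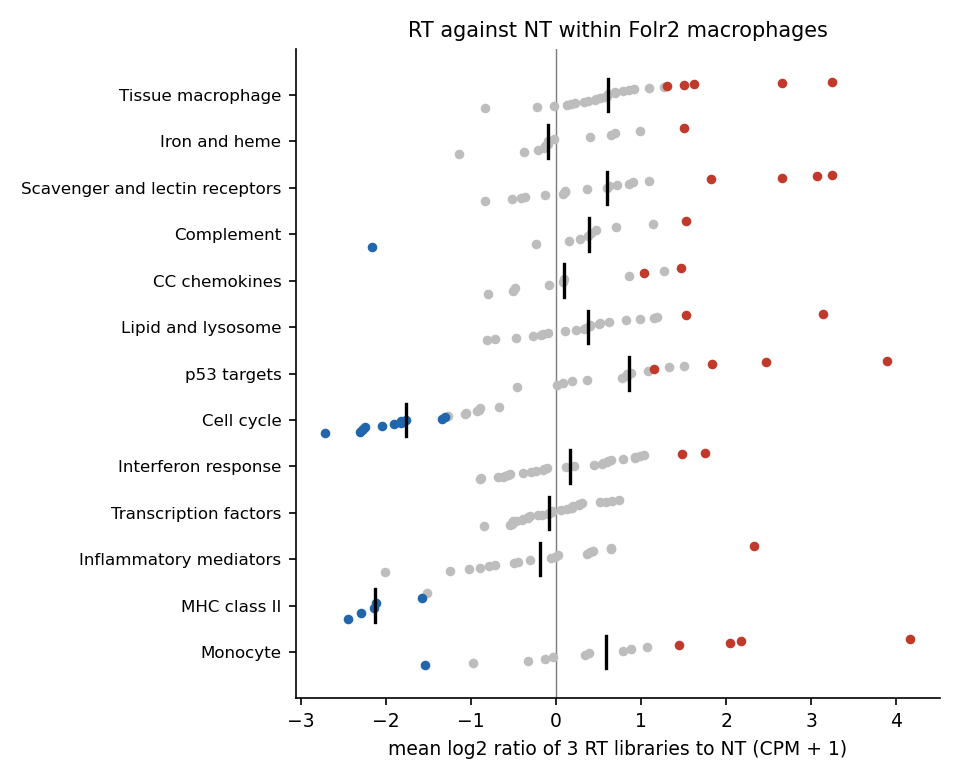
Mean log2 ratio of the 3 RT libraries to NT (CPM plus 1) within Folr2 macrophages for the genes of 13 lists, 1 point per gene, red and blue for genes past the fold upward and downward, grey for the others, and a black bar at the median. Cell cycle (median -1.76) and MHC class II genes (-2.13) lie to the left, p53 targets (0.86) and tissue macrophage genes (0.61) mostly to the right.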

How the data were processed

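Single-cell RNA was measured in 4 libraries, and the authors deposited UMI counts as whole numbers, 1 table per library, made with SeekOne Tools. The submitters' processing notes also name Cell Ranger, STAR 2.5.1b, featureCounts and Subread 1.6.4, with no role given. Genome build and annotation differ between the sources used here, so no gene coordinates are given beyond the RefSeq promoters. Tables were joined on gene symbol, reading a repeated symbol as its first gene. Genes absent from any table were not analysed here, and chemokine, MHC and other genes with near-identical copies depend on how the authors split shared reads. No doublet caller was run.

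UMIs were summed per library and population. Within-library comparisons used edgeR 4.0.16 (R 4.3.3) quasi-likelihood tests with TMM, filterByExpr, library as a block and Benjamini-Hochberg adjustment at 0.05. The 8 genes of the rule were kept in library sizes and left out of the tests. Both sums come from the same library, which is why the library is the block. Data were simulated with 200 changed genes, drawn from genes with larger summed counts. For Folr2 against other C1q macrophages, over 9114 genes, 98.0% of 2-fold changes were recovered and 6.16% of calls were false. For the Lyve1 comparison, over 9541 genes, these values were 100% and 3.85%. The simulation did not sort cells by UMIs, so it covers neither the choice of the cells nor the recovery of genes at low counts. RT and NT were compared by size alone. DESeq2 1.42.0 and Python 3.11.15 were used for the alternatives and the counting.

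Named were the genes of the rule, the 12 largest rises and falls per comparison (for edgeR those at an adjusted p under 0.05, the same sign in 4 libraries and at least 50 CPM in the higher population, without ribosomal, mitochondrial and predicted genes), the 5 best correlates of Ccl8, and examples from lists. Some genes that this rule or the lists hold are not reported here. Members, lists and tests were chosen with earlier results of these data known. UMI depths limit genes at a few counts. Intervals are exact, at 95%, and cover counting error only.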

Additional observations from a re-analysis of the deposited data

Results flagged for a closer look

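For 4 listed genes, all 3 RT libraries lay below NT in the Folr2 macrophages and above NT in the other C1q macrophages, with both mean log2 ratios at least 0.3 in size. The difference between the populations was not tested, since NT is 1 library. The scavenger receptor gene Cd36 had a mean log2 ratio of -0.36 in the Folr2 macrophages and 0.50 in the other C1q macrophages, and the fibronectin gene Fn1 had -0.98 and 0.57. The checkpoint gene Havcr2, which encodes TIM-3, had -0.34 and 1.14, and Mitf, a transcription factor of lysosome genes, had -0.38 and 0.58. Some single libraries were close to NT, such as RT3 for Havcr2 in the Folr2 macrophages (-0.01) and RT3 for Fn1 in the other C1q macrophages (0.01). Groups of 3 libraries are too small for a search for outlying samples.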

How the results depend on the processing

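No result reversed. Genes higher and lower in Folr2 than in other C1q macrophages (971 and 1093) numbered 470 and 513 with cells thinned to 2000 UMIs, 553 and 555 by DESeq2, and 535 to 1070 and 607 to 964 when each library was left out in turn. Without the replicate block of libraries they were 70 and 87, and 14 of the 24 named genes kept their call. The Lyve1 comparison (354 and 456) gave 229 higher with at least 4 UMIs of the Folr2 group, 82 and 202 thinned, 124 and 187 by DESeq2, and 102 to 471 and 173 to 589 leaving libraries out. Without the replicate block edgeR called 0 and 1, with 227 and 278 genes at an unadjusted p under 0.05, and 1 of 24 named genes kept its call. DESeq2 lost 1 of those 24, Mmp13 (adjusted p = 0.084). All other alternatives kept all 24 in both comparisons. Ccl8 against other C1q macrophages ranged from 1.57 to 2.74 (edgeR adjusted p = 0.013 without the block), and Ccl8 in RT over NT from 1.35 to 1.62.

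Counts of genes past the fold (195 and 167) became 50 and 73 with a pseudocount of 10 CPM, 354 and 291 from 5 UMIs, 371 and 328 without a minimum, 584 and 447 at a fold of 1.5, and 65 downward when thinned. Leaving out an RT library gave 223 to 417 upward and 204 to 243 downward, and leaving out NT gives no value. Of the 24 named log2 ratios, 22 moved beyond the spread of the RT libraries at a pseudocount of 10 CPM and 13 at 0.1 CPM. Thinned, 12 could be read and 4 of them moved, and without barcodes that held markers of other cells 5 of 22 moved. Without those barcodes, between 56.8% and 62.4% of which were tumor barcodes, the share of the remaining ones differed by 11.3 points, and RT was 2.01 times NT in place of 3.27. The cause of these shifts was not tested, apart from fewer libraries or cells. No paired analysis of RT against NT was possible because NT is 1 library of 3 pooled tumors, with no tumor matched to an RT library. In NT, 299 Folr2 macrophages with 1524202 UMIs set the limit for genes under about 2 CPM.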
